A study of Mus musculus with 20 samples.

Results

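The zinc finger genes of mouse chromosome 7 were taken as every protein-coding gene on that chromosome in the GENCODE basic annotation of mm10 (GRCm38) whose symbol is Zfp followed by a number. There were 89 such genes among 21938 protein-coding genes, and 276 Zfp genes lay on other chromosomes. Their chromatin was examined in livers of male C57BL/6 mice, wild type, that were young (3 months) or old (21 months). Chromatin immunoprecipitation followed by sequencing (ChIP-Seq) had been done for H3K14ac, which is histone H3 acetylated on lysine 14, in 3 livers of each age. It had also been done for Setdb1 in 3 livers of each age, and for Kap1 in 2 livers of each age. The livers of an age were merged before peaks were called, so each mark and age is 1 list of peak positions, and variation from liver to liver cannot be shown. The lists carry no read depth, so a difference in peak number between the ages and a difference in library depth cannot be told apart. Whole liver was used, so hepatocytes and the other cells of the organ cannot be told apart. The comparisons ask where acetylation and the 2 silencing factors lie at these genes and how their positions differ between young and old liver.

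Most proteins of this kind hold an array of C2H2 zinc fingers that reads DNA, and many hold a KRAB domain. A KRAB domain recruits Kap1 (encoded by Trim28), a scaffold that brings the methyltransferase Setdb1 to trimethylate lysine 9 of histone H3, and most KRAB zinc finger proteins silence transposable elements. The array of fingers is usually encoded in the last exon, and in several cell types the 3' ends of zinc finger genes are themselves known to carry Kap1 and methylated H3K9. H3K14ac is found mainly at active start sites and enhancers.

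The label of the set was checked on the translated coding sequences. A count of the pattern CxxC, 12 residues, then HxxxH or HxxxxH gave a median of 11 fingers per member and a range of 0 to 33. The member with 0 was Zfp36, which encodes tristetraprolin, an RNA-binding protein with fingers of the CCCH type that promotes the decay of messenger RNAs. The highest count was that of Zfp619. All matched finger bases lay in the last exon of 77 members, and a KRAB pattern was found in 41, taken as F, any residue and DV, then EEW within 12 residues. The finger pattern misses fingers with other spacings, such as most of those of Zfp143, a start site activator for which it gave 1.

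Members lay in 21 clusters when those less than 500 kb apart were joined, and 12 of these held 1 member. Gene bodies with 5 kb added on each side made up 2.47 Mb, or 1.70% of the chromosome. Each such window was split into start sites (1 kb on each side), the last exon, the middle of the gene and the flank. In shares of members, a peak that touched both a start site and the last exon counted at both, as for Kap1 at Zfp580 in young liver. Neighbouring windows can overlap, so a peak can belong to more than 1 member, and a peak was counted once in the totals. Of the 89 members, 10 had no peak in any of the 6 lists. They were Zfp583, Zfp78, Zfp296, Zfp114, Zfp59, Zfp383, Zfp82, Zfp146, Zfp764 and Zfp511. A further 49 members had 1 to 3 peaks over the 6 lists and 30 had 4 or more. Over all protein-coding genes, whose windows differ in length from those of the members, 20.7% had no peak, 47.2% had 1 to 3 and 32.2% had 4 or more.

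**Figure D1:**
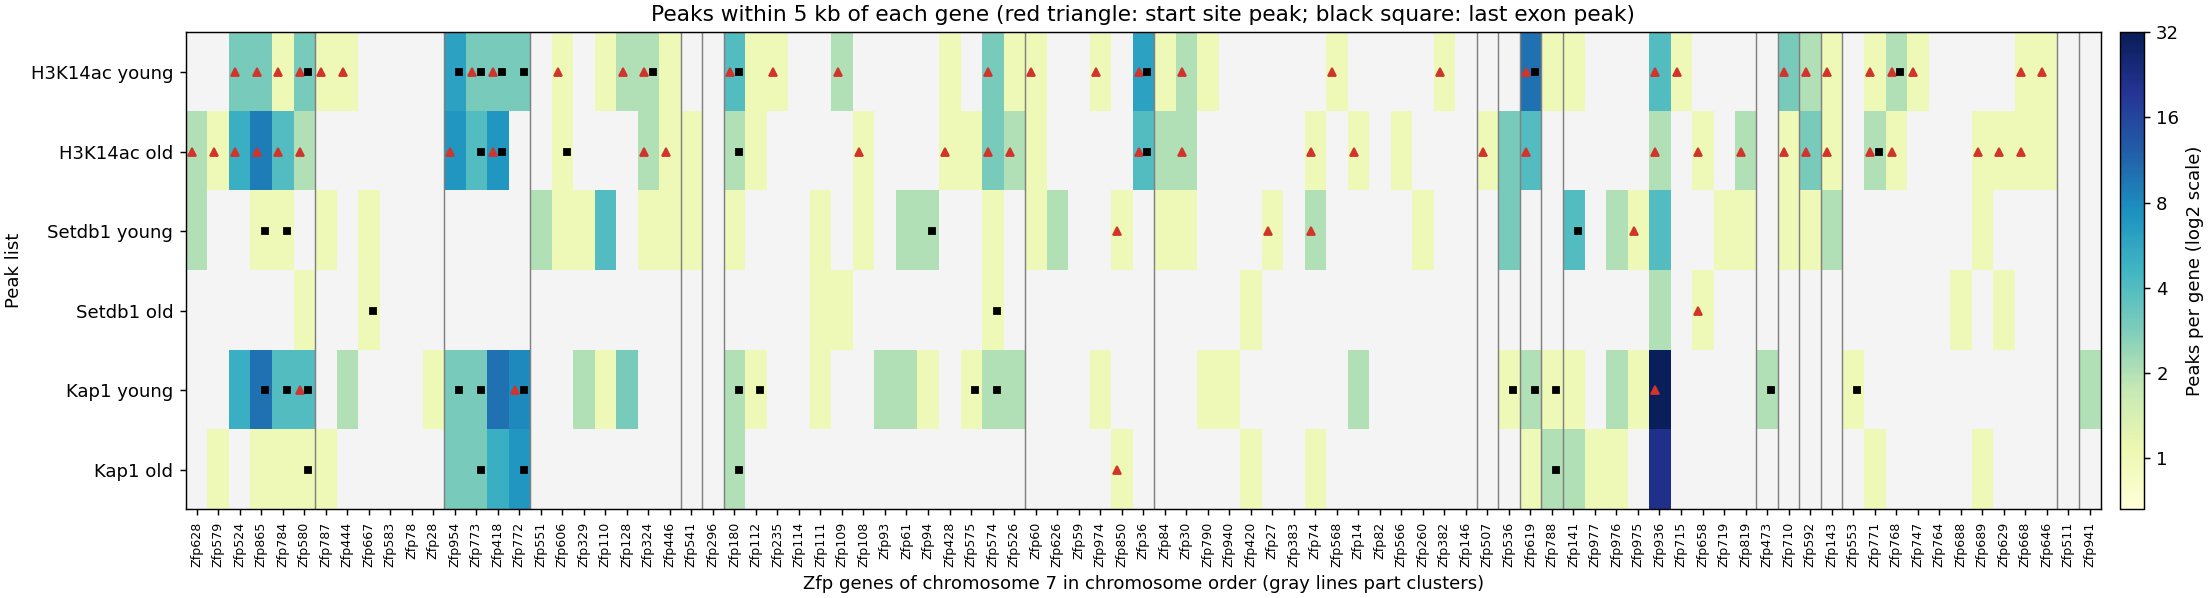
Number of peaks in each list (rows) within 5 kb of each of the 89 genes (columns, in chromosome order), on a log2 colour scale with gray for 0. Red triangles mark a start site peak and black squares a last exon peak, and gray lines part the 21 clusters. Kap1 peaks were most numerous at Zfp936, with 31 in young and 21 in old liver.

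Sequence is shown first for the coding last exons where a Kap1 peak of young liver and one of old liver overlapped. Among all members this was so for Zfp773, Zfp772 and Zfp580. Most overlaps of young and old Kap1 peaks lay outside last exons. Of 24 young peaks with an old partner, 12 were at Zfp936, outside its last exon. Each sequence is from GRCm38 on the coding strand, and capitals mark bases that encode a matched zinc finger. The segment of Zfp773 is chr7:7132974-7133168 on the minus strand, that of Zfp772 is chr7:7204094-7204279 on the minus strand, and that of Zfp580 is chr7:5053009-5053137 on the plus strand, where it also lies in an intron of Ccdc106.
Zfp773: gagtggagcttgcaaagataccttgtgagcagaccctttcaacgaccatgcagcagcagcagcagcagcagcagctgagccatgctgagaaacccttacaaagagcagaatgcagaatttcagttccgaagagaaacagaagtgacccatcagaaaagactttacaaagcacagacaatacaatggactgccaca
Zfp772: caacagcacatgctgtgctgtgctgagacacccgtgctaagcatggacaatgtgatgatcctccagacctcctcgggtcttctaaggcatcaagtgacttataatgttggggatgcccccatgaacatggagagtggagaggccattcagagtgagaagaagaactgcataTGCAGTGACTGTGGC
Zfp580: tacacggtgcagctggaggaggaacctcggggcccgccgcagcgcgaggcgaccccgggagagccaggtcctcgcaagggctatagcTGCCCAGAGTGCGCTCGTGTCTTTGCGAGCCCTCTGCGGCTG
The segment of Zfp773, 195 bases long, ended before the fingers and held 0 finger bases. That of Zfp772 reached 15 bases into the first matched finger of its 186 bases, and that of Zfp580 had 42 finger bases of 129. Within these segments, which were chosen as coding last exon bases, most bases thus preceded the matched fingers.

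H3K14ac marked the start sites of about as many members in old as in young liver. A start site peak was found at 32 of 89 members in young liver (36%, 95% Wilson interval 26.8% to 46.3%), against 18.3% of all protein-coding genes. In old liver it was found at 31 members (34.8%, 25.7% to 45.2%), against 26.6% of all genes. The all-gene share thus lay below the interval of the members in young liver and within it in old liver. Zfp genes of other chromosomes stood at 29.7% in young and 37.3% in old liver, and the other genes of chromosome 7 at 15.8% and 20.7%. These intervals cover counting error only.

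The members with an acetylated start site were only partly the same at both ages. Of the members called, 17 had a start site peak at both ages, 15 in young liver alone and 14 in old liver alone, so that 53.1% of the young members were also found in old liver, where all genes stood at 62.5%. In the other direction, 54.8% of the old members were also found in young liver, where all genes stood at 43.2%. The 17 were Zfp524, Zfp865, Zfp784, Zfp580, Zfp418, Zfp324, Zfp574, Zfp36, Zfp30, Zfp619, Zfp936, Zfp710, Zfp592, Zfp143, Zfp771, Zfp768 and Zfp668. Zfp568, a KRAB protein known to repress a placental Igf2 transcript, had 1 start site peak in young liver and none in old liver.

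Among the 14 of these 17 members that matched the RefSeq promoter table, the start site bases inside H3K14ac peaks of both ages, summed over separate stretches, came to 801 bp at Zfp592, 500 bp at Zfp619, 490 bp at Zfp771 and 489 bp at Zfp580, and to less at the others. Of these, the 250 bases before the RefSeq start overlapped no annotated exon at Zfp619 and Zfp580, and those are shown, from the RefSeq promoter table (GRCm38.p6), with CG dinucleotides in capitals. The first is chr7:39517516-39517765 and the other chr7:5051282-5051531, both on the plus strand.
Zfp619: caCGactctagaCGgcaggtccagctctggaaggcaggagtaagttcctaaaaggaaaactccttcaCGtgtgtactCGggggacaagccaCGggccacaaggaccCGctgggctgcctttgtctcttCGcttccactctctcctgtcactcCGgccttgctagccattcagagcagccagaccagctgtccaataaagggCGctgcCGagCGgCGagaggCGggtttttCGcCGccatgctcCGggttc
Zfp580: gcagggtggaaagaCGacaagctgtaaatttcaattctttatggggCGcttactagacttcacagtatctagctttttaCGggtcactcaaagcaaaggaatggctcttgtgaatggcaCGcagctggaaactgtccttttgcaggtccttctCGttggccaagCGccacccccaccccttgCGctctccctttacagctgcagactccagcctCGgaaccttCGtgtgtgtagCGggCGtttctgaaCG
At Zfp619 all 250 bases lay in peaks of both ages and held 16 CG dinucleotides. At Zfp580 81 of them did, and CG occurred 12 times. Among the 81 members matched in that table, the median number of CG dinucleotides in these 250 bases was 15 for the 14 members with a start site peak at both ages and 10 for the 41 with none. The range was 2 to 33 in the former and 2 to 26 in the latter, so the groups overlapped over nearly their whole length. Where a gene had several starts in the table, the one with the most CG dinucleotides was used for these medians. Over 27026 genes of the table the median was 6. That is a larger set than the 21938 protein-coding genes used elsewhere.

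Anywhere in the window, H3K14ac was found at 43 members in young liver (48.3%, 38.2% to 58.5%), against 32.5% of all genes, and at 42 in old liver (47.2%, 37.2% to 57.5%), against 40.4%. Member windows held 84 peaks of young liver and 80 of old liver, and dividing the old by the young count gives 0.952 beside 1.06 for the whole lists. Within a list, 5 of the young and 6 of the old peaks shared bases with another one of the same age. The richest member in young liver was Zfp619 with 10 peaks, of which 4 lay at the start site and 1 in the last exon. In old liver Zfp619 had 4. The richest in old liver was Zfp865 with 9 peaks, against 3 in young liver.

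Kap1 was found in the last exons of 15 members in young liver and of 5 in old liver. The young share was 16.9% (10.5% to 26%) beside 4.51% of all genes, and the old share was 5.62% (2.42% to 12.5%) beside 2.26%. Zfp genes of other chromosomes stood at 11.2% in young and 5.07% in old liver. Last exons of members were longer, with a median of 2816 bp against 1122 bp over all genes, and a longer exon has more room for a peak. As a share of bases, Kap1 peaks covered 2.01% of the members' last exons in young liver and 1.26% in old liver, against 0.545% and 0.298% over all genes. A few genes and wide peaks carried these values. Without peaks over 1 kb the old value was 0.608%. With the 9 peak-rich members described below left out, the values were 0.806% and 0.364%.

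**Figure D2:**
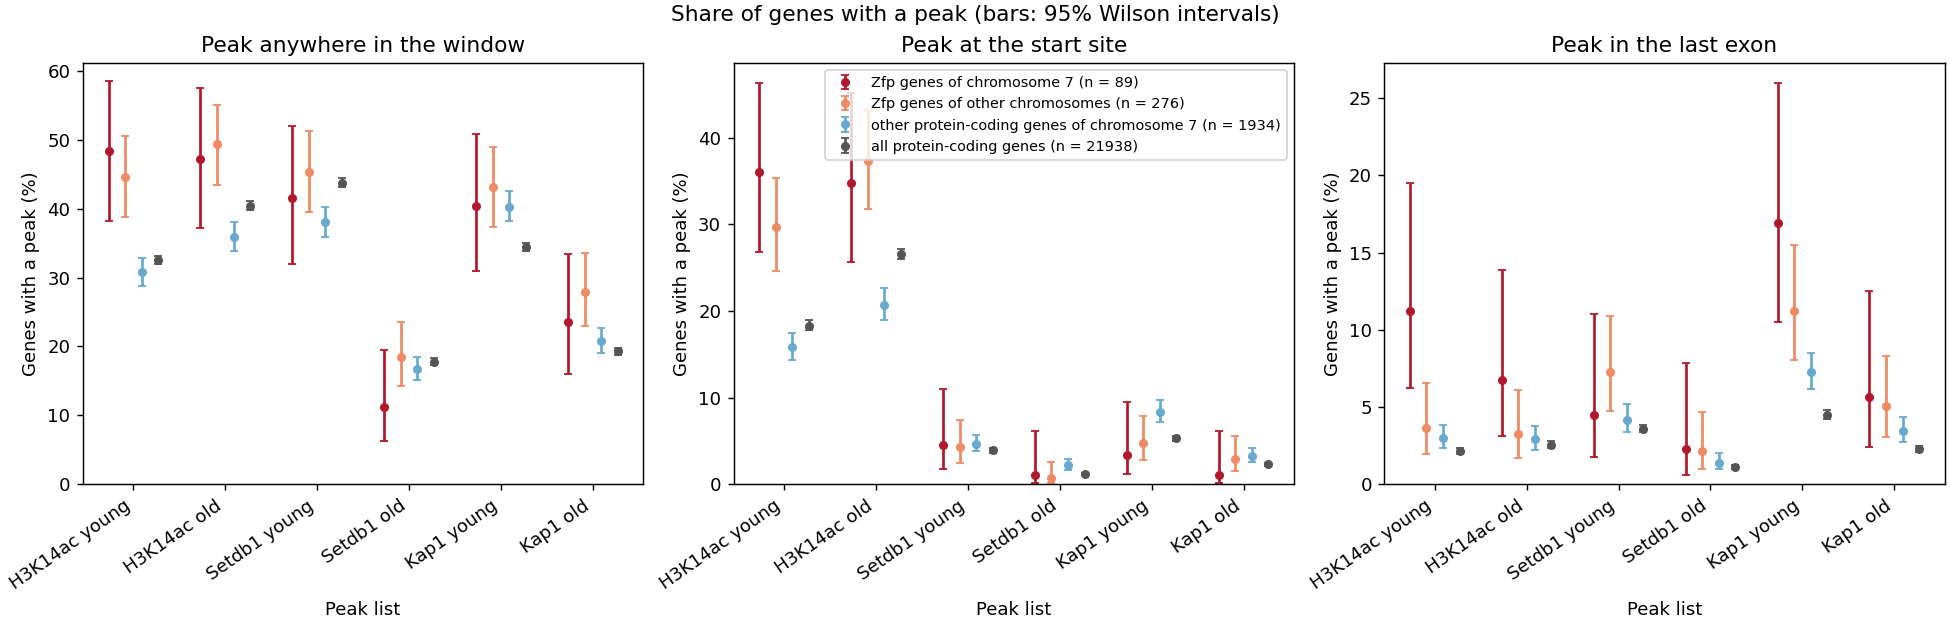
Share of genes with a peak (vertical axis, percent) in each of the 6 lists, anywhere in the window, at the start site and in the last exon, for the 89 members and 3 other sets of genes. Points are shares and bars are 95% Wilson intervals. In the last exon the members stand at 16.9% for Kap1 in young liver and all genes at 4.51%.

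The 15 members in young liver were Zfp865, Zfp784, Zfp580, Zfp954, Zfp773, Zfp772, Zfp180, Zfp112, Zfp575, Zfp574, Zfp536, Zfp619, Zfp788, Zfp473 and Zfp553. Zfp473 encodes a component of the machinery that processes histone messenger RNAs. The last exons of Zfp865 and Zfp784, which face each other, shared 1 of these peaks. All 5 members of old liver were among the 15, namely Zfp580, Zfp773, Zfp772, Zfp180 and Zfp788. Over all genes, 38.3% of those with a last exon peak of Kap1 in old liver also had one in young liver, and the members' count rests on 5 genes.

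The length of last exon under Kap1 varied widely among these members. At Zfp954 a peak of 2184 bp covered the whole last exon of 1511 bp in young liver, and no Kap1 peak touched it in old liver. At Zfp773 Kap1 covered 195 bp in young liver and 1844 bp in old liver, of which most came from a peak of 1540 bp. At Zfp772 the order was reversed, with 848 bp covered when young and 186 bp when old. The direction with age thus differed between these neighbouring genes.

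At Zfp180 Kap1 covered 579 bp of the last exon in young liver and 654 bp in old liver, but the peaks did not overlap. The young peak was chr7:24105921-24106499, and the old ones were chr7:24104852-24105001 and chr7:24106680-24107183. In the same exon H3K14ac peaks covered 1500 bp at the young age and 956 bp at the old age. At Zfp788, which has 23 fingers, the young and the old Kap1 peak each lay wholly within the fingers, 150 bp each, and were again apart, at chr7:41650083-41650232 and chr7:41648979-41649128. At Zfp580 the overlap of 129 bp lay in a last exon of 531 bp. Elsewhere among the young list, 150 bp of last exon was covered at each of Zfp784, Zfp112, Zfp575, Zfp574, Zfp536, Zfp619, Zfp473 and Zfp553, the width of 1 Kap1 peak.

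Within the last exon, Kap1 was spread over the fingers and the rest. In young liver it covered 2.55% of the finger arrays, 2.61% of the other coding bases and 1.47% of the noncoding bases. In old liver these values were 0.751%, 1.87% and 1.36%. Around the start of the last exon, no bin of 250 bp had Kap1 at more than 5 of the 89 members in young liver or 4 in old liver, from 3 kb before to 5 kb after it. No position relative to the start of the last exon was thus common to many members. Only 15 members in young and 5 in old liver had Kap1 in the last exon. These counts therefore do not show whether it had a preferred place there.

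**Figure D3:**
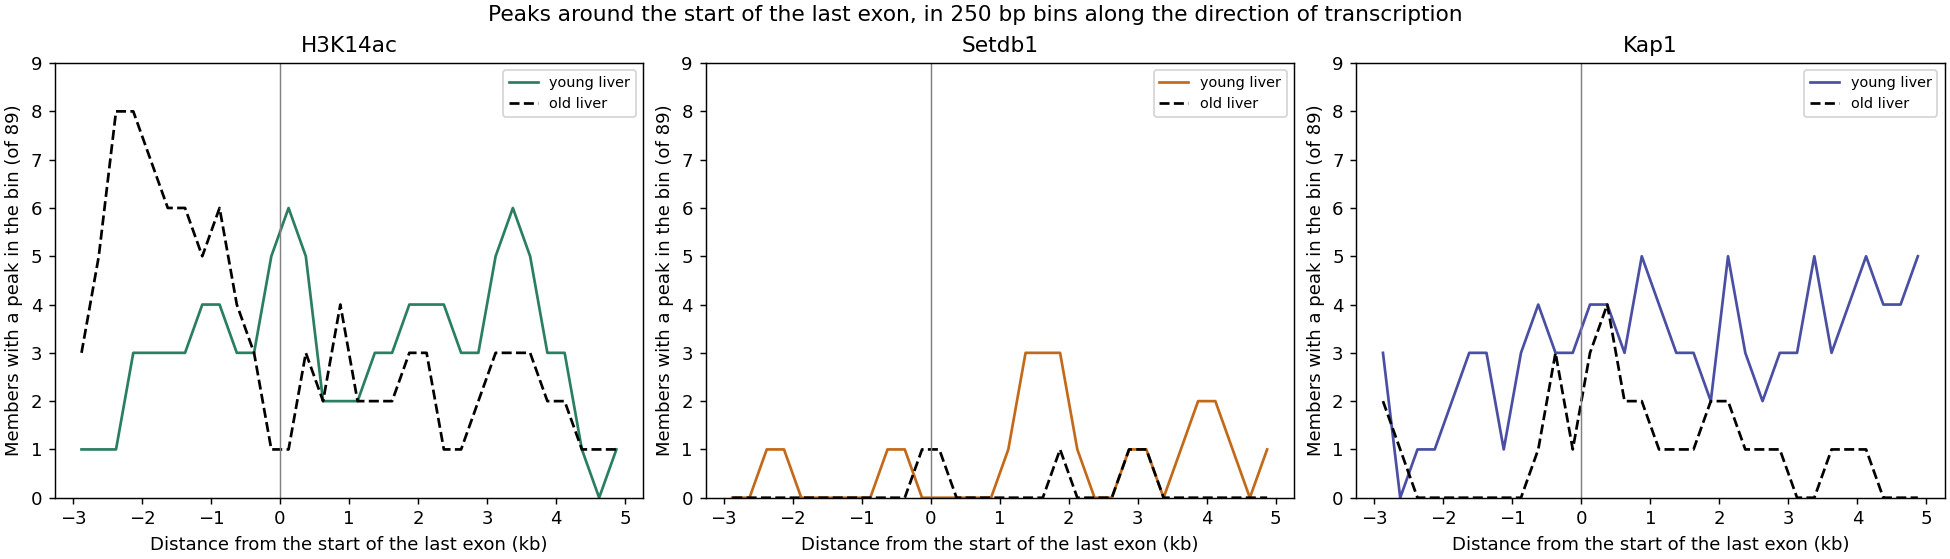
Number of the 89 members with a peak in each bin of 250 bp (vertical axis) against the distance from the start of the last exon in kb (horizontal axis, in the direction of transcription), for young (solid) and old (dashed) liver. Kap1 stays at or below 5 members throughout, and H3K14ac reaches 8 of 89 in old liver before the exon.

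A sequence common to finger arrays was searched in member peaks of the commonest width. The letters ACTGGAGAG, which encode part of the linker between adjacent fingers, were sought on both strands. They occurred 0.92 times per kb in the finger arrays of members, 0.392 per kb in their last exons and 0.0244 per kb on chromosome 7, and 40 of the 89 last exons held a match. Among member peaks of the commonest width, 150 bp for Kap1, 0 of 82 in young liver and 1 of 31 in old liver held it. Only 10 of these young and 3 of these old peaks were assigned to a last exon. Wider peaks were not searched, such as that of 2184 bp at Zfp954, which held 645 bp of finger array. The search thus met little finger sequence, and a low count in Kap1 peaks is not shown. The shares over these whole lists were 0.374% and 0.424%, and 0.275% of genome tiles of 150 bp held it. No match says only that these letters are not in that window.

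Members with and without the KRAB pattern were set side by side. The pattern misses KRAB domains that differ from these letters, and 0 of the 14 members of the cluster from Zfp180 to Zfp526 matched it, so members without it may still hold a KRAB domain and the groups are not proteins with and without KRAB. Kap1 in the last exon was found in young liver at 4 of 41 members with the pattern (9.76%, 3.86% to 22.5%) and at 11 of 48 without it (22.9%, 13.3% to 36.5%). The intervals overlapped. Anywhere in the window the counts were 16 of 41 (39%) and 20 of 48 (41.7%), and the intervals overlapped. In old liver the order was the other way, with 12 of 41 (29.3%, 17.6% to 44.5%) and 9 of 48 (18.8%, 10.2% to 31.9%), again with overlapping intervals. H3K14ac start site peaks were found in young liver at 12 of 41 (29.3%, 17.6% to 44.5%) and 20 of 48 (41.7%, 28.8% to 55.7%). In young liver, all genes stood at 4.51% for Kap1 in the last exon and at 18.3% for H3K14ac at the start site. For Kap1 anywhere in the window they stood at 34.4% in young and 19.3% in old liver.

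Anywhere in the window, 36 members had Kap1 in young liver (40.4%, 30.9% to 50.8%), against 34.4% of all genes. In old liver there were 21 (23.6%, 16% to 33.4%), against 19.3%. Both all-gene shares lay within the intervals of the members. Kap1 at start sites was rare, at Zfp580, Zfp772 and Zfp936 in young liver (3.37%, with 5.32% of all genes) and at Zfp850 in old liver (1.12%, with 2.30% of all genes). The windows held 112 young and 56 old Kap1 peaks, or 45.3 and 22.7 per Mb, where the whole chromosome had 33.3 and 14.7 per Mb. The old count was thus 0.5 times the young one, beside 0.453 for the whole lists. Of the 112 young peaks, 13 lay in the body of another protein-coding gene and outside any member, as did 2 of the 56 old ones.

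These peaks were concentrated at few genes. Zfp936 alone had 31 Kap1 peaks in young liver and 21 in old liver. Its window of 87.9 kb was 3.56% of the members' windows and held 27.7% and 37.5% of their Kap1 peaks. The neighbours Zfp954, Zfp773, Zfp418 and Zfp772, in 72.2 kb, held 24 in young and 17 in old liver. The neighbouring genes Zfp524, Zfp865, Zfp784 and Zfp580, in 46.2 kb, held 18 and 2. The remaining 80 members had 39 peaks in young liver and 16 in old liver, which is 17.2 and 7.07 per Mb. The 9 members of the 3 loci were singled out after their counts were seen, so a lower density at the rest follows from that choice and was not set against the chromosome.

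**Figure D4:**
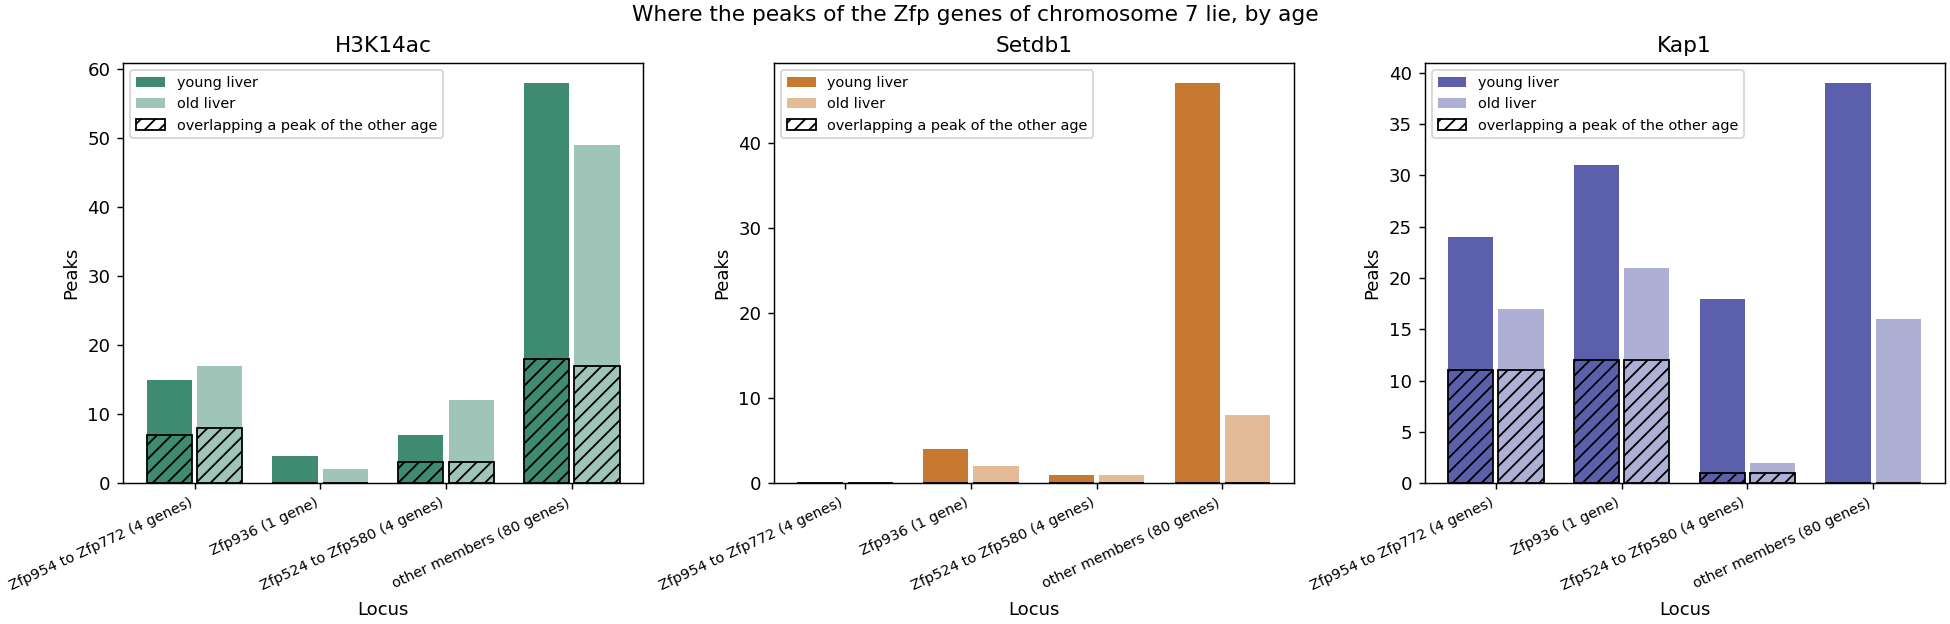
Peaks in member windows (vertical axis, number of peaks) at the 3 peak-rich loci and at the other 80 members, for each mark, in young (dark) and old (light) liver. Hatched boxes count peaks that share at least 1 bp with a peak of the other age, of which Kap1 has 0 at the other 80 members.

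Kap1 peaks that shared at least 1 bp between the ages were found in the windows of these 3 loci. Over all members, 24 of 112 young peaks overlapped an old peak (21.4%, 14.8% to 29.9%) and 24 of 56 old peaks a young one (42.9%, 30.8% to 55.9%). In the whole lists the shares were 7.61% and 17.1%. Of the young peaks with a partner, 12 were at Zfp936, 11 at Zfp954 to Zfp772 and 1 at Zfp580. At the other 80 members 0 of 39 young peaks had an old partner, which allows a share of up to 7.69%, and 0 of 16 old peaks had a young partner, which allows up to 18.8%. Both limits lie above the shares of the whole lists, and the 9 members of the 3 loci were chosen for their many Kap1 peaks, so the other members are not shown to differ. When partners could lie as far as 500 bp apart, an alternative added here after the data were seen, 1 of the 39 young peaks (2.56%) and 1 of the 16 old peaks (6.25%) had one, at Zfp180.

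The 3 loci were set side by side for age pattern and sequence, without a test of a difference. From young to old liver the number of Kap1 peaks went from 31 to 21 at Zfp936, from 24 to 17 at Zfp954 to Zfp772, and from 18 to 2 at Zfp524 to Zfp580. In the young list repeat-masked bases made up 58.6% of peak sequence at Zfp936, 41.8% at Zfp954 to Zfp772 and 14.3% at Zfp524 to Zfp580, with 34.5% over the whole chromosome. The part of repeats in these counts was not tested. Windows at Zfp524 to Zfp580 also held 4 other protein-coding genes, 4632433K11Rik, Ccdc106, Fiz1 and Gm44973, whereas that of Zfp936 held none. The last exon of Zfp936 had 26.5% of its 50-base words elsewhere in the genome, and reads that align to several places had been discarded.

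With the 9 peak-rich members left out, Kap1 covered 0.806% of the last exons in young liver and 0.364% in old liver, where all genes stood at 0.545% and 0.298%. A last exon peak was then found at 9 of 80 members in young liver (11.2%, with 4.51% of all genes) and at 2 of 80 in old liver (2.5%, with 2.26% of all genes, so that the old share was close to that of all genes). Since the 9 were chosen for their many peaks, lower values without them were fixed by that choice. In the 9 members themselves Kap1 covered 17.9% of the last exon bases in young liver and 13% in old liver. Of the last exon bases under Kap1, 3002 of 4781 in young liver and 2180 of 2984 in old liver lay in these 9 genes.

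**Figure D5:**
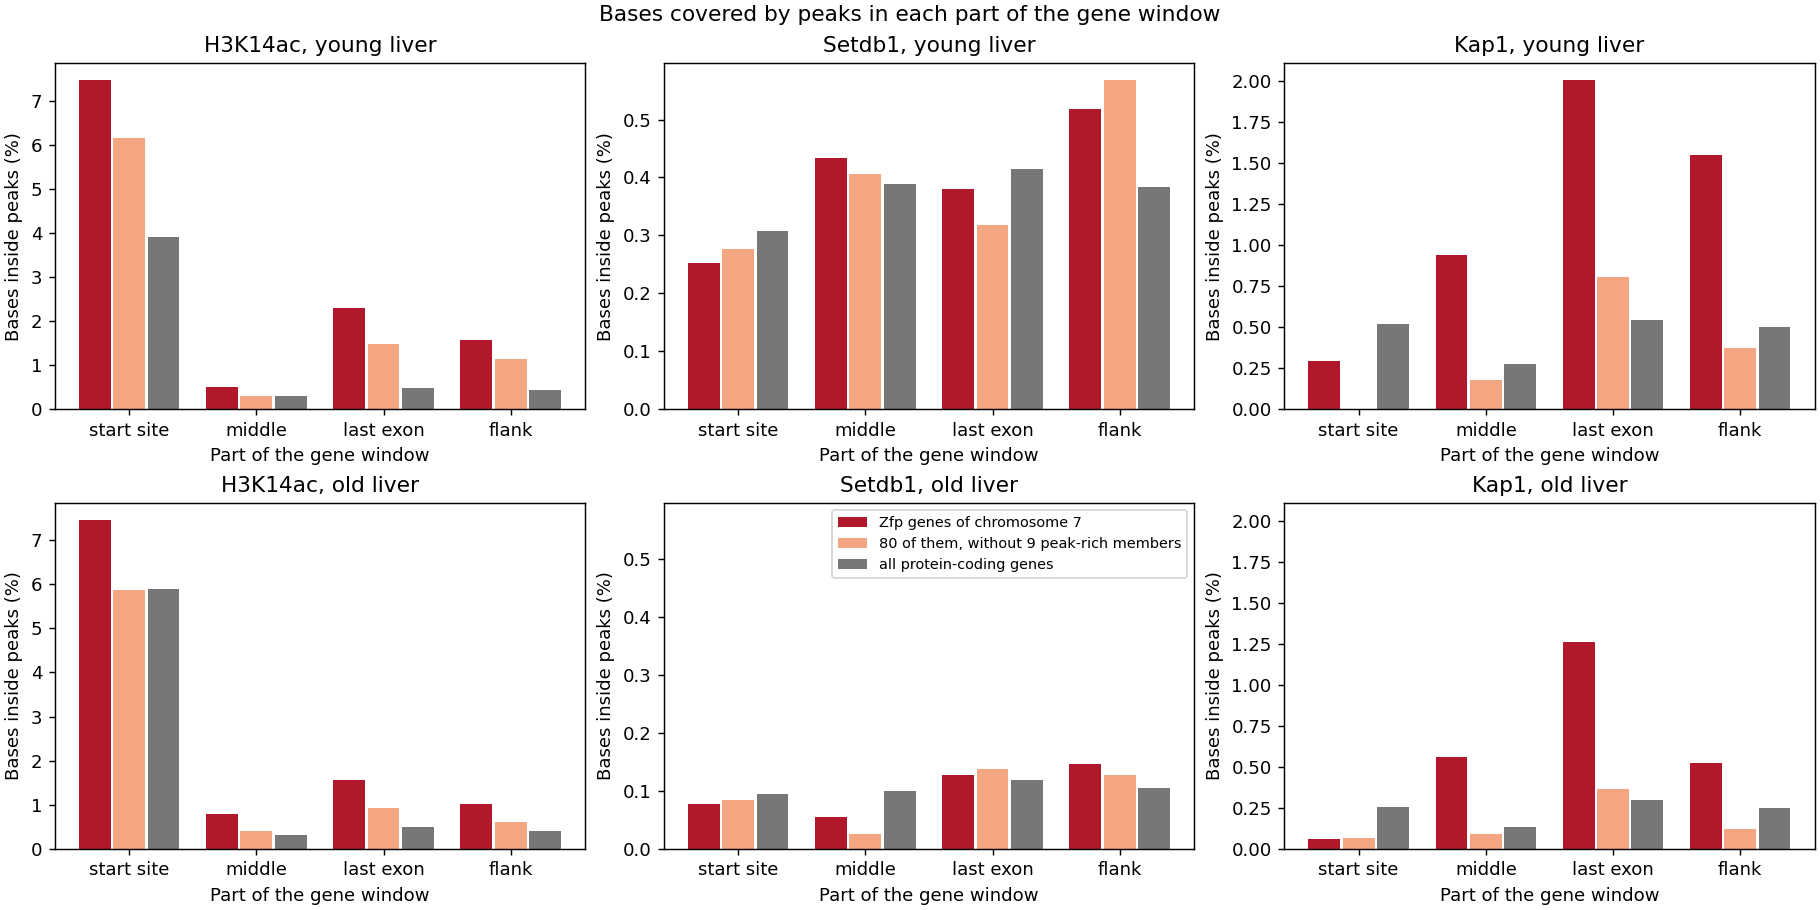
Percent of bases inside peaks (vertical axis) at the start site, the middle, the last exon and the flank, for the 89 members, for 80 of them without the 9 peak-rich ones, and for all protein-coding genes, by mark and age. For Kap1 in the last exon the 3 bars stand at 2.01%, 0.806% and 0.545% in young liver.

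The start site coverage of H3K14ac was 7.48% in young and 7.45% in old liver over all members. It was 6.16% and 5.88% with the 9 left out, and 3.9% and 5.9% over all genes. The 9 were chosen for their many Kap1 peaks, so a smaller change for H3K14ac does not show that it was less concentrated than Kap1. In last exons H3K14ac peaks were found at 10 members in young liver (11.2%, 6.22% to 19.5%), against 2.17% of all genes, and at 6 in old liver (6.74%, 3.13% to 13.9%), against 2.57%. The members of young liver were Zfp580, Zfp954, Zfp773, Zfp418, Zfp772, Zfp324, Zfp180, Zfp36, Zfp619 and Zfp768. Those of old liver were Zfp773, Zfp418, Zfp606, Zfp180, Zfp36 and Zfp771, so that Zfp773, Zfp418, Zfp180 and Zfp36 were found at both ages. These 4 are 40% of the young and 66.7% of the old members, where all genes stood at 35.6% and 30%. The young last exon peaks of Zfp580 and Zfp768 also counted at the start site, as did the peak chr7:28377984-28378483 of Zfp36. The peak of Zfp768 covered 43 bp of its last exon. H3K14ac covered 2.29% of last exon bases in young and 1.55% in old liver, and 1.48% and 0.93% with the 9 left out, where all genes stood at 0.48% and 0.501%. With the 9 left out, a last exon peak of H3K14ac was found at 5 of 80 members in young liver (6.25%). In old liver it was found at 4 of 80 (5%).

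At Zfp36, which has a short gene body, H3K14ac had 6 young and 4 old peaks, of which 2 lay at the start site at each age. Neither Setdb1 nor Kap1 had a peak there at either age. Of the 84 young H3K14ac peaks in member windows, 28 overlapped an old peak (33.3%, 24.2% to 43.9%), where the whole list stood at 20.7%. Of the 80 old peaks, 28 overlapped a young one (35%, 25.5% to 45.9%), where the whole list stood at 20.1%. At the other 80 members, 18 of 58 young and 17 of 49 old H3K14ac peaks had a partner.

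Setdb1 was the mark with the fewest peaks at these genes in old liver. It was found at 37 members in young liver (41.6%, 31.9% to 52%), against 43.7% of all genes, and at 10 in old liver (11.2%, 6.22% to 19.5%), against 17.8%. Both all-gene shares lay within the intervals. The windows held 52 young and 11 old Setdb1 peaks, so that the old count was 0.212 times the young one, beside 0.274 for the whole lists. The members with Setdb1 at both ages were Zfp667, Zfp111, Zfp574 and Zfp936, which is 10.8% of the young and 40% of the old members, where all genes stood at 28.2% and 69.3%. At none of them did the positions overlap, and 0 of the 52 young peaks had an old partner, which allows a share of up to 5.77%. The whole list stood at 0.854%.

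Setdb1 lay at the start and in the last exon of few members, in shares whose intervals included those of all genes. Start site peaks were found in young liver at Zfp850, Zfp27, Zfp74 and Zfp975 (4.49%, 1.76% to 11%), with 3.91% of all genes, and in old liver at Zfp658 (1.12%, 0.199% to 6.09%), with 1.15%. Last exon peaks were found in young liver at Zfp865, Zfp784, Zfp94 and Zfp141 (4.49%, 1.76% to 11%), with 3.60% of all genes. Zfp865 and Zfp784 were counted for the same peak, chr7:5034455-5034654. In old liver they were found at Zfp667 and Zfp574 (2.25%, 0.618% to 7.83%), with 1.09%. The genes from Zfp954 to Zfp772 had 0 Setdb1 peaks at either age, in windows of 72.2 kb. Over all member windows Setdb1 had 21.1 peaks per Mb in young and 4.45 per Mb in old liver. Few would fall in a window of that size, so the 0 is not shown to be low.

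Peaks of different marks met at few places. Setdb1 overlapped Kap1 at 3 of 52 peaks in young liver (5.77%, 1.98% to 15.6%) and at 2 of 11 in old liver (18.2%, 5.14% to 47.7%), and each of these lay at Zfp936. In the whole lists the shares were 2.07% and 1.82%. At the other 80 members 0 of 47 young and 0 of 8 old Setdb1 peaks overlapped Kap1. The peak-rich members were chosen for their many Kap1 peaks, so fewer overlaps at the rest follow from that choice. The other members are thus not shown to differ from the whole lists. H3K14ac overlapped Kap1 at 11 of 84 young peaks (13.1%, 7.47% to 21.9%), where the whole list stood at 12.1%, and at 7 of 80 old peaks (8.75%, 4.3% to 17%), where it stood at 6.65%. Of the 11 young peaks, 6 lay at Zfp418, Zfp772 or Zfp954, 2 at Zfp936, 1 at Zfp580 and 2 at Zfp110 or Zfp180.

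Peaks of all 3 marks lay in the windows of 7 of 89 members in young liver, with 9.50% of all genes. They were Zfp865, Zfp784, Zfp110, Zfp180, Zfp574, Zfp141 and Zfp936. In old liver this was so for 2 of 89, Zfp580 and Zfp936, with 4.03% of all genes. Zfp110 encodes a protein that binds the neurotrophin receptor p75. Only at Zfp936 in young liver did the 3 share bases, in an intron. The stretch common to Setdb1 and Kap1, chr7:43165861-43166060 on the plus strand, is shown because it was the place where all 3 lists met, and capitals mark the 66 bases that were also in the H3K14ac peak.
Zfp936: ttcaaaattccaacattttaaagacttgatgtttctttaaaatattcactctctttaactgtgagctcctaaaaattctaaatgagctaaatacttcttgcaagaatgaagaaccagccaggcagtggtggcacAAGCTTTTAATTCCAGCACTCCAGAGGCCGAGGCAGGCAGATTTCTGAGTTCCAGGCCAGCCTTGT
Of its 200 bases, 146 are masked as repeats in the reference, including all 66 in capitals. In old liver no peak of any of the 3 lists overlapped it. An old Kap1 peak lay close beside it, at chr7:43166140-43166289, within the span of the same young H3K14ac peak.

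The clusters with several members differed in how many peaks they held over the 6 lists. Zfp954 to Zfp772 had 73 peaks, or 101 per 100 kb of window. Zfp628 to Zfp580 (6 members) had 47, or 54.9 per 100 kb, and Zfp141 to Zfp819 (9 members) had 87, or 26.5 per 100 kb, of which 64 were at Zfp936. Zfp551 to Zfp446 (7 members) had 25 and Zfp180 to Zfp526 (14 members) had 46, at 17 and 16.7 per 100 kb. Zfp60 to Zfp36 (6 members) and Zfp553 to Zfp646 (10 members) each had 11.1 per 100 kb. Over the whole chromosome, peaks per Mb in young and old liver were 10.4 and 10.8 for H3K14ac. They were 19.3 and 5.95 for Setdb1, and 33.3 and 14.7 for Kap1.

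The lowest density among these was in Zfp787 to Zfp28 (6 members, 9 peaks, 5.47 per 100 kb) and Zfp84 to Zfp146 (15 members, 22 peaks, 6.30 per 100 kb). Of the 10 members with no peak, 5 lay in these 2 clusters, Zfp583, Zfp78, Zfp383, Zfp82 and Zfp146. Among the members that stood alone, Zfp619 had 17 peaks in 32.7 kb. Zfp536 had 7 in 312 kb, and Zfp296 and Zfp511 had none. Between these were Zfp541, Zfp507, Zfp788, Zfp473, Zfp710, Zfp592, Zfp143 and Zfp941, with 1 to 6 peaks each.

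Genes for the partners of KRAB proteins were examined by the same rules. The 12 genes were Trim28, Setdb1, Atf7ip, Cbx1, Cbx3, Cbx5, Chd3, Chd4, Atrx, Daxx, Mphosph8 and Morc3. H3K14ac had a start site peak at 6 of them in young and 7 in old liver, where 18.3% and 26.6% of all genes had one. Kap1 had a peak anywhere in the window at 2 and 1, where all genes stood at 34.4% and 19.3%. Setdb1 had one at 6 and 1, where all genes stood at 43.7% and 17.8%. Trim28, the gene of Kap1, lies on chromosome 7 near Zfp446 and had 6 H3K14ac peaks at each age and no peak of Setdb1 or Kap1. Setdb1 itself had 1 H3K14ac peak and 1 Setdb1 peak in young liver and none in old liver. Cbx5, which encodes HP1 alpha, the reader of methylated H3K9, had peaks of all 3 marks in young liver.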

How the data were processed

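Liver chromatin was immunoprecipitated for H3K14ac, Setdb1 and Kap1. The authors aligned the reads to mm10 with BWA 0.7.12, filtered duplicate reads with Picard 1.134 and discarded reads with several alignments. After pooling livers of the same age they ran PeakSeq with input as the control. The number of livers pooled for H3K14ac and Setdb1 is uncertain: sample labels and methods text give 3 per age, whereas figure legends give 2, and 3 is used here. The deposited lists hold peak positions (chromosome, start and end) and no height, score or count, so depth is unknown and no test was made. Spaces after chromosome names were removed. The sequential ChIP data were not analysed here.

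Members, gene lists and settings were chosen with earlier results of these data known. Genes were those of GENCODE M21 (basic, protein-coding), and the last exon was that of the transcript with the longest coding sequence. Fingers were counted in its translation, since no protein table was used. A peak sharing at least 1 bp was counted as inside. Overlaps were checked against bedtools 2.31.1 (0 of 1602 counts differed) and tested on simulated data. Genes were named if they had Kap1 in the last exon at both ages, were among the 10 with the most peaks, had all 3 marks at an age, had no peak or bounded a cluster. Others named were members of a count given in full, or were chosen after their values were seen (Zfp36, Zfp143, Zfp568 and the 9 peak-rich members). Analyses used Python 3.11.15, numpy 2.4.6, numba 0.67.0 and matplotlib 3.10.9.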

Additional observations from a re-analysis of the deposited data

How the results depend on the processing

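Member shares, peak numbers, coverage of start sites, middles and last exons, and overlaps between lists were recomputed with other rules for overlap, flank, start window, last exon, peak width and duplicated sequence, of which 421 values stayed within their interval or within 1.5 times and 47 did not. Values by KRAB pattern, finger array, flank, locus and cluster and for partner genes were not recomputed, except that a gap of up to 500 bp was also allowed for Kap1 outside the peak-rich loci. No paired analysis was possible because each list pools the livers of an age and carries no replicate.

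Without the flank, Setdb1 was found at 27% of members in young and 5.62% in old liver (6 old peaks), and with a 10 kb flank at 20.2% in old liver (18 peaks). With start windows of 2 kb, start site shares were 7.87% (Kap1 old), 11.2% (Kap1 young) and 13.5% (Setdb1 young). Start site coverage was then 4.94% and 4.56% for H3K14ac in old and young liver, 0.243% and 0.533% for Kap1, and 0.0423% and 0.507% for Setdb1. With 500 bp it was 0.107% for Kap1 and 0.117% for Setdb1 in old liver. Without the 8 members whose last exons are over 20% duplicated (Zfp936 among them), 34 old Kap1 peaks were left. Coverage of the middle was then 0.226% (Kap1 old), 0.627% (Kap1 young) and 0.026% (Setdb1 old), and Kap1 start coverage in young liver 0.0652%. Without peaks over 1 kb, Kap1 covered 0.608% of last exons in old liver. Shares of all genes at these other settings are not given, so the values above are not a comparison with all genes.

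With every peak set to 150 bp, coverage in young and old liver was 2.25% and 2.29% (H3K14ac start), 0.146% and 0.227% (H3K14ac middle), 0.672% and 0.468% (H3K14ac last exon), 0.889% and 0.401% (Kap1 last exon), and 0.19% for Setdb1 in young last exons, since narrower peaks cover less. Overlaps between ages were then 18.1% and 18.8% for H3K14ac and 14.3% and 28.6% for Kap1, and H3K14ac met Kap1 at 4.82% and 3.75% and Setdb1 at 0%. With 50% of the first peak covered, H3K14ac overlapped between ages at 23.8% of young peaks and Kap1 at 12.5% of young and 30.4% of old peaks, and young H3K14ac met Kap1 at 4.76% and Setdb1 at 0%, also in old liver. A gap of up to 500 bp gave 22.6% for young H3K14ac with Kap1 and 32.1% for young Kap1 with old.

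The 3 sets of peak-rich members were left out after the data were seen. Without Zfp936, 35 old Kap1 peaks remained in the windows. Without the 9 peak-rich members, 39 young and 16 old Kap1 peaks and 49 old H3K14ac peaks were left, and the young Kap1 start site share was 0%. The last exon share of Kap1 in young liver ranged from 11.2% to 17% over these sets. Depth is unknown, so a peak missing from a list does not show that the factor was absent, and a lower number of peaks in old liver cannot be told apart from a shallower library.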
